A study of Mus musculus with 18 samples.

Results

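Transcripts of peroxisomes, the organelles in which hepatocytes shorten very long and branched fatty acids and break down hydrogen peroxide, were followed in AML12 cells exposed to pemafibrate. The gene set holds 35 genes out of 35551 in each deposited table. It was put together by name, with no threshold on measured values, from peroxisomal enzymes (19), transporters of the peroxisomal membrane and their relatives (4) and peroxins (12). AML12 is a non-transformed mouse hepatocyte line, and pemafibrate selectively modulates PPARα, a nuclear receptor of lipid metabolism. The groups are pemafibrate and its solvent DMSO in cells whose circadian rhythm had been synchronized, over 1 of 3 windows: T0 to T24, a 24 h exposure that served as the reference, T14 to T20, a 6 h exposure meant to mimic the day, and T24 to T30, a 6 h exposure meant to mimic the night. The 18 libraries fell into 6 groups of 3, and no dose is given in the labels. Values are normalized signal per gene as the authors scaled it within each window's table. All groups share 1 cell line and the synchronization, and the labels do not say whether the libraries of a group came from separate cultures. P-values therefore measure only how far these libraries spread, and that spread may be technical.

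Peroxisomal β-oxidation runs through acyl-CoA oxidases, bifunctional proteins with hydratase and dehydrogenase activity, and thiolases, while catalase removes the hydrogen peroxide that the oxidases make. Peroxins build the organelle: some insert its membrane proteins, others import enzymes that carry a targeting signal, and the Pex11 proteins take part in its division. In rodent liver, PPARα ligands are known as peroxisome proliferators, and the genes of acyl-CoA oxidase, the bifunctional protein Ehhadh and thiolase are textbook targets of the receptor, which binds DNA together with RXR at direct repeats of a hexamer.

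The 250 bases upstream of the start sites of Hsdl2 and Ehhadh read as follows in RefSeq (build GRCm38.p6, each 5′ to 3′ on the strand of its gene). They are shown because Hsdl2 was the member that passed the test and Ehhadh is a textbook target of the receptor. A script searched each window, from 250 bases before to 50 bases after the start site, on both strands for a direct repeat of the hexamer AGGTCA with 1 base between the copies, allowing up to 2 mismatches over the 12 fixed bases. Capitals would mark a match, and neither window held one.
Hsdl2, chr4:59581313-59581562, plus strand: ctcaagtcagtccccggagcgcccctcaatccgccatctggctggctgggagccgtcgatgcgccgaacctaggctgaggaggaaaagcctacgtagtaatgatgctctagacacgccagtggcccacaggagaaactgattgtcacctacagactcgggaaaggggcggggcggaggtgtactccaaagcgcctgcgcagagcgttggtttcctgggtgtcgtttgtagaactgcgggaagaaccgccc
Ehhadh, chr16:21787835-21788084, minus strand: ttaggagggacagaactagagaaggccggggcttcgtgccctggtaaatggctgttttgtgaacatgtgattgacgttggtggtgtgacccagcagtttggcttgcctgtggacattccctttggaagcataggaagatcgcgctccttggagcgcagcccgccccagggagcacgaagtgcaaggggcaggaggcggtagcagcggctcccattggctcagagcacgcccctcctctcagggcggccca

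A RefSeq window was given for 29 of the 35 genes, and 2 of these 29 held a match, both enzymes of the 17 with a window. This is 6.9% of the members with a window, against 4.4% of 27025 mouse genes searched in the same way. None of the 10 peroxins with a window, Pex11a among them, held one. With at most 1 mismatch no member matched, against 0.644% of all genes. The match in the catalase gene lay on the strand of the gene 204 to 192 bases before the start site, at chr2:103485345-103485357, a minus-strand gene, and stands in capitals between its flanks.
Cat: tctcagAGGTCAGAGAACAccagca
The other match was in Acox2, 9 to 21 bases after the start site. A match describes the letters of these windows only, and a window without one says nothing about the receptor.

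All 35 members were expressed above the level used for testing, a mean normalized signal of 10 over the libraries of a fit. Per kilobase of exon, catalase (Cat) led the set with 9966 ± 782 normalized signal in DMSO cells (SD, n = 9), and its lowest DMSO library lay above the highest of every other member. Ech1, a dienoyl-CoA isomerase, followed with 1273 ± 137 per kb and Hsd17b4, the D-bifunctional protein, with 1046 ± 64.8 per kb. The libraries of these 2 genes overlapped. The most abundant peroxin was Pex19, the receptor for newly made membrane proteins, at 815 ± 77.6 per kb. Hsdl2, a dehydrogenase-like protein with a sterol carrier domain, took rank 19 at 212 ± 37.5 per kb. Ehhadh took rank 32 at 43.6 ± 4.49 per kb, beside Abcd4 at 41.2 ± 4.49 per kb, and these also overlapped. Abcd2, a transporter of very long chain acyl-CoA, was lowest at 3.56 ± 2.10 per kb. Length here is all annotated exons of a gene merged, from 12092 bases for Pex7 to 1516 for Pecr. It can exceed the transcript that the cells make, which lowers the value per kb. These levels also pool DMSO libraries of 3 tables that were normalized separately. The ranks are therefore a rough order of the genes and not a test between windows.

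**Figure D1:**
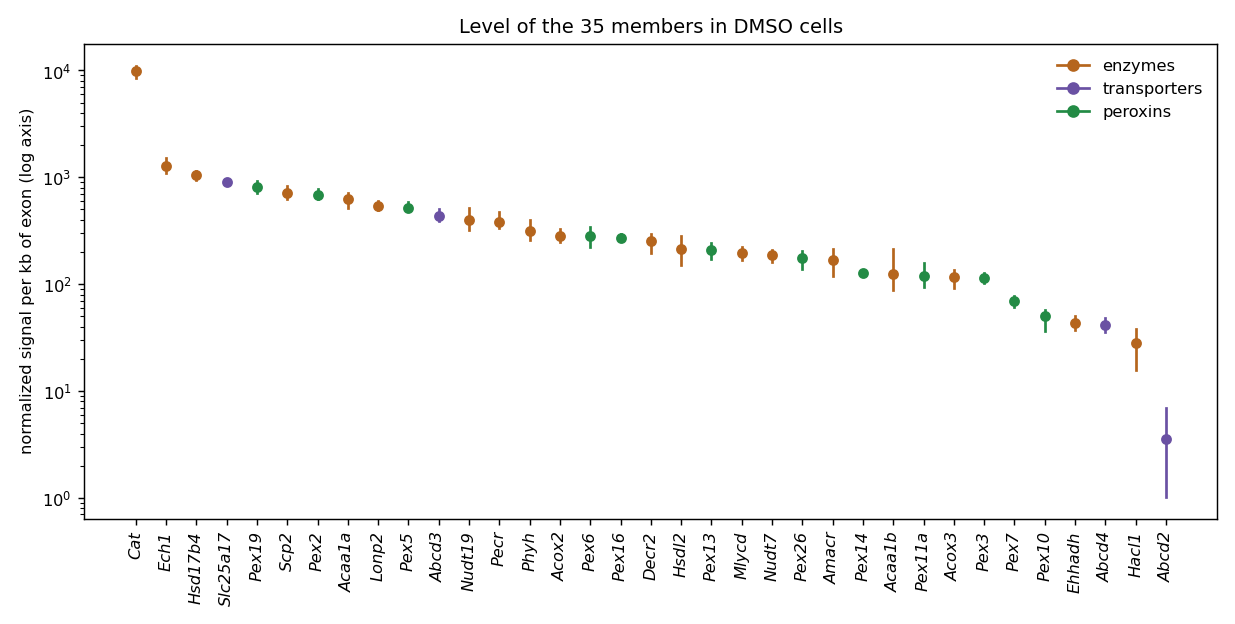
Level of the 35 members in DMSO cells, as normalized signal per kb of merged exon on a log axis. Points are means over 9 libraries, lines run from the lowest to the highest library, and colours mark enzymes, transporters and peroxins. Cat stands alone at the top and Abcd2 at the bottom.

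The cells carried hepatocyte transcripts: 9 of 10 hepatocyte markers averaged above 10 normalized signal, Apoa1 being the exception at 8.34. Fgb was above 10 but low at 22.7, below Ptprc and Col1a1 among the markers of other cells. Of the bile duct markers, Krt19 and Sox9 were present, at 9868 and 3942, and Epcam was near 0 at 3.02. The summed bile duct markers ran from 10526.2 to 16019.5 in pemafibrate libraries and from 10849.1 to 15290.4 in DMSO libraries. Of the macrophage markers, Adgre1 and Clec4f were at 0 in every library and Ptprc averaged 40.6, with the 3 summed from 30.02 to 57.72 in pemafibrate libraries and from 27.64 to 58.45 in DMSO libraries. Of the endothelial markers, Pecam1 averaged 17.5, while Cdh5 and Stab2 were near 0, and the sum ran from 7.9 to 28.2 with pemafibrate and from 10.8 to 32.4 with DMSO. Of the stellate cell and fibroblast markers, Col1a1 averaged 34.9 and Dcn 17.5, while Col1a2 and Lrat were near 0, and the sum ran from 29.9 to 86.8 with pemafibrate and from 17.2 to 110.4 with DMSO. Their part in the results was not tested. In bulk RNA, fewer cells of a kind and less RNA per cell cannot be told apart. Genes named as a check of the drug were higher with it: over the 3 windows, limma put Acot1, a cytosolic acyl-CoA thioesterase with close paralogs that may share its reads, 0.73 ± 0.04 log2 units higher with pemafibrate than with DMSO (SE, adjusted p = 2.72e-07), Angptl4, an inhibitor of lipoprotein lipase, 0.57 ± 0.03 higher and Pdk4, a kinase that inhibits pyruvate dehydrogenase, 1.17 ± 0.11 higher. These genes were chosen with earlier results of these data known, so they are not an independent check.

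Of the 35 peroxisomal genes, Hsdl2 was the only one that passed the test, and it did so in the fit over all windows. That fit was planned with the knowledge, from earlier results of these data, that it calls more genes. The test was limma on log2(value + 1), with pemafibrate and DMSO libraries paired by replicate number and a threshold of 0.05 on p adjusted over all genes tested. In T0 to T24 its normalized signal was 849, 789 and 632 in the pemafibrate libraries of replicates 1, 2 and 3, against 575, 543 and 426 in the DMSO libraries. In T14 to T20 it was 1011, 949 and 670 with pemafibrate, against 618, 656 and 502 with DMSO. In T24 to T30 it was 948, 987 and 747 with pemafibrate, against 674, 783 and 553 with DMSO. Every pemafibrate library lay above every DMSO library in the first 2 windows, while in T24 to T30 the lowest pemafibrate library fell below the highest DMSO library. Within each replicate number, pemafibrate was higher in 9 of 9 pairs, by 0.33 to 0.71 log2 units.

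Means of Hsdl2 were 756 ± 112 with pemafibrate and 515 ± 78.3 with DMSO in T0 to T24, 877 ± 182 with pemafibrate and 592 ± 80.1 with DMSO in T14 to T20, and 894 ± 129 with pemafibrate and 670 ± 115 with DMSO in T24 to T30 (SD, n = 3 each). The paired limma fit of each window gave log2 fold changes of 0.55 ± 0.06, 0.55 ± 0.07 and 0.42 ± 0.06 (SE) in the order of the windows, with adjusted p of 0.0584, 0.0941 and 0.210. None of these passed 0.05. A single effect fitted over all windows, each of the 9 pairs being a block (the common fit), gave 0.51 ± 0.04 (95% interval 0.43 to 0.59), a 1.42-fold higher signal with pemafibrate (1.35 to 1.51) and an adjusted p of 7.14e-06. Without the pairing the same estimate had an adjusted p of 0.169, so the call rests on comparing libraries within a replicate number. Hsdl2 was 1 of 25 genes past the threshold in this fit, a number that was 12 to 17 without 1 of the replicate numbers.

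**Figure D2:**
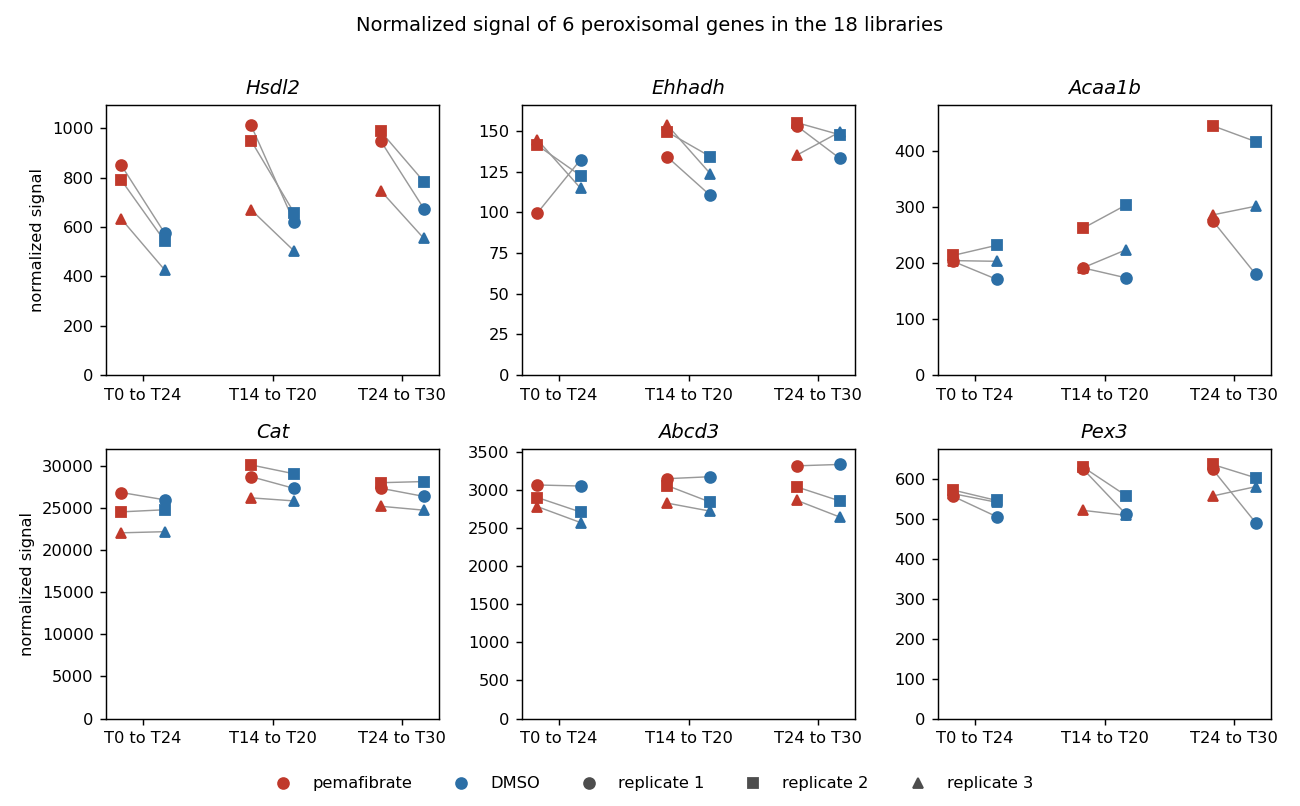
Normalized signal of Hsdl2, Ehhadh, Acaa1b, Cat, Abcd3 and Pex3 in the 18 libraries, pemafibrate in red to the left of DMSO in blue in each window; lines join libraries of the same replicate number. All 9 lines of Hsdl2 run down to DMSO, while each of the other 5 genes has at least 1 line that runs up.

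Within single windows limma called 0 of the 35 members in each. The background was 0.0525% of 13325 genes tested in T0 to T24, 0.0379% of 13210 in T14 to T20 and 0.0378% of 13231 in T24 to T30. At an unadjusted p under 0.05 there were 2, 2 and 1 members in these windows, among 689, 1075 and 994 of all genes tested. The common fit called 1 of 35, beside 0.189% of 13258 genes (24 higher and 1 lower), and 3 members had an unadjusted p under 0.05, beside 855 of all genes. Pemafibrate was higher in 9 of 9 pairs for Hsdl2 alone among the members, with a background of 0.483% of genes, and lower in 9 of 9 pairs for no member, with a background of 0.302%.

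Among the enzymes of β-oxidation, none of the classical targets passed the test. Ehhadh, which hydrates and dehydrogenates the enoyl-CoA intermediates, had 99.7, 141 and 145 normalized signal with pemafibrate against 132, 123 and 115 with DMSO in T0 to T24. Its values were 134, 150 and 154 with pemafibrate against 110, 134 and 124 with DMSO in T14 to T20, and 153, 155 and 135 with pemafibrate against 133, 148 and 149 with DMSO in T24 to T30. The groups overlapped in every window, although all 3 pairs were higher with pemafibrate in T14 to T20. The common log2 fold change was 0.11 (95% interval −0.06 to 0.28, adjusted p = 0.881), with 7 of 9 pairs higher, and the upper bound is a 1.22-fold higher signal.

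The thiolases Acaa1a and Acaa1b, which cut off acetyl-CoA in the last step, are close paralogs whose reads the counting may have divided with error. Acaa1a gave a common log2 fold change of 0.01 (95% interval −0.05 to 0.08, adjusted p = 0.962). Its pemafibrate libraries ran from 2292 to 3084 and its DMSO libraries from 2274 to 3159 over all windows. Acaa1b had 203, 214 and 205 with pemafibrate against 171, 232 and 203 with DMSO in T0 to T24, 192, 263 and 192 with pemafibrate against 174, 304 and 224 with DMSO in T14 to T20, and 276, 446 and 286 with pemafibrate against 180, 417 and 302 with DMSO in T24 to T30. These groups overlapped in all windows, and replicate 2 was highest in each of the 6 groups. The common log2 fold change of Acaa1b was 0.05 (95% interval −0.12 to 0.22, adjusted p = 0.949).

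The other enzymes of β-oxidation had common log2 fold changes from −0.11 for Amacr to 0.05 for Acox2. Acox2 and Acox3, oxidases of branched substrates, were at 0.05 and 0.03, and Hsd17b4 and Ech1 at 0.04 each. Decr2 and Pecr, reductases of unsaturated acyl-CoA, were at 0.02 and 0.03, and Scp2, whose gene also encodes a thiolase for branched chains, at −0.003. In all, 9 of the 11 β-oxidation genes had a positive value, with a median of 0.030, and none passed the test. Amacr, a racemase for branched acyl-CoA and bile acid intermediates, is named for its low value in 1 window. In T14 to T20 it had 329, 471 and 367 normalized signal with pemafibrate against 409, 531 and 486 with DMSO, lower in each pair although the groups overlapped. That log2 fold change was −0.30 ± 0.08 (SE, limma adjusted p = 0.508), and it was 0.03 in T0 to T24 and −0.06 in T24 to T30.

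Of the α-oxidation enzymes, which shorten phytanic acid by 1 carbon, Hacl1 had a common log2 fold change of −0.11 (95% interval −0.26 to 0.05) and Phyh of −0.02 (−0.11 to 0.06). Each was higher with pemafibrate in 2 of 9 pairs. Catalase had 26833, 24537 and 22051 normalized signal with pemafibrate against 25965, 24786 and 22184 with DMSO in T0 to T24. It had 28715, 30108 and 26200 with pemafibrate against 27315, 29051 and 25834 with DMSO in T14 to T20, and 27341, 27998 and 25202 with pemafibrate against 26369, 28133 and 24737 with DMSO in T24 to T30. The groups overlapped in each window and the replicate numbers kept the same order with and without the drug. Its interval was the narrowest of the set: the common log2 fold change of Cat was 0.03 (95% interval −0.005 to 0.06, adjusted p = 0.827). The upper bound of this interval is a 1.04-fold higher signal. The CoA hydrolases Nudt7 and Nudt19 were at −0.01 and 0.06, malonyl-CoA decarboxylase Mlycd at 0.03 and the peroxisomal protease Lonp2 at 0.00. None of these passed the test. Nudt19 had 1185, 1155 and 1148 normalized signal with pemafibrate against 1090, 1045 and 1144 with DMSO in T14 to T20, without overlap, but its adjusted p there was 0.692.

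Among the transporters, Abcd3, which carries branched and dicarboxylic acyl-CoA into peroxisomes, had the smallest p. Its normalized signal was 3065, 2900.2 and 2781 with pemafibrate against 3051, 2710 and 2572 with DMSO in T0 to T24. It was 3147, 3058 and 2827 with pemafibrate against 3173, 2840 and 2721 with DMSO in T14 to T20, and 3316, 3040.3 and 2864 with pemafibrate against 3334, 2855 and 2644 with DMSO in T24 to T30. Replicates 2 and 3 were higher with pemafibrate in every window and replicate 1 was about level, so the groups overlapped. The common log2 fold change was 0.06 (95% interval 0.02 to 0.11, adjusted p = 0.629), with 7 of 9 pairs higher, and did not pass the test. Slc25a17, a carrier of cofactors, was at −0.01 and Abcd4, a family member known from lysosomes, at 0.01.

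Abcd2 was the exception in spread and is named for its values. In T0 to T24 it had 21.7, 22.8 and 13.0 normalized signal with pemafibrate against 41.3, 40.2 and 23.2 with DMSO. Every pemafibrate library lay below every DMSO library, and the log2 fold change was −0.83 (95% interval −1.40 to −0.26, limma adjusted p = 0.832). No share of all genes without overlap is given here. The lack of overlap for Abcd2, and likewise for Hsdl2, Nudt19 and Pex3, is therefore a description only. The gene is close to the level filter, and in the 6 h windows it was at 0.01 and 0.16. Its common interval, −0.69 to 0.25, was the widest of the set.

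None of the 12 peroxins passed the test. Pex3, which anchors Pex19 at the peroxisomal membrane, had 555, 571 and 562 normalized signal with pemafibrate against 505, 545 and 541 with DMSO in T0 to T24, where the groups did not overlap. It had 624, 629 and 521 with pemafibrate against 510, 557 and 508 with DMSO in T14 to T20, and 623, 635 and 556 with pemafibrate against 489, 602 and 580 with DMSO in T24 to T30, with overlap in both. The common log2 fold change of Pex3 was 0.13 (95% interval 0.03 to 0.22, adjusted p = 0.629), with 8 of 9 pairs higher. It was the largest value among the peroxins and did not pass the test.

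Pex11a, the peroxin of division that PPARα ligands raise in rodent liver, had 434, 354 and 307 with pemafibrate against 398, 347 and 318 with DMSO in T0 to T24. It had 469, 354 and 329 with pemafibrate against 501, 348 and 299 with DMSO in T14 to T20, and 390, 347 and 456 with pemafibrate against 440, 377 and 381 with DMSO in T24 to T30. The groups overlapped in each window, and 5 of 9 pairs were higher with pemafibrate. The common log2 fold change was 0.02 (95% interval −0.09 to 0.12, adjusted p = 0.982). The upper bound of this interval, for the average over the windows, is a 1.09-fold higher signal.

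For the import receptors Pex5 and Pex7 the common log2 fold changes were −0.003 and 0.02, and for Pex13 and Pex14 of the docking complex 0.02 and 0.05. The ubiquitin ligases Pex2 and Pex10 were at −0.01 and −0.002, and Pex6 and its membrane anchor Pex26, which recycle the receptor, at 0.02 and 0.04. Pex16 and Pex19 of membrane protein insertion were at −0.001 and −0.03. None of these 10 passed the test.

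**Figure D3:**
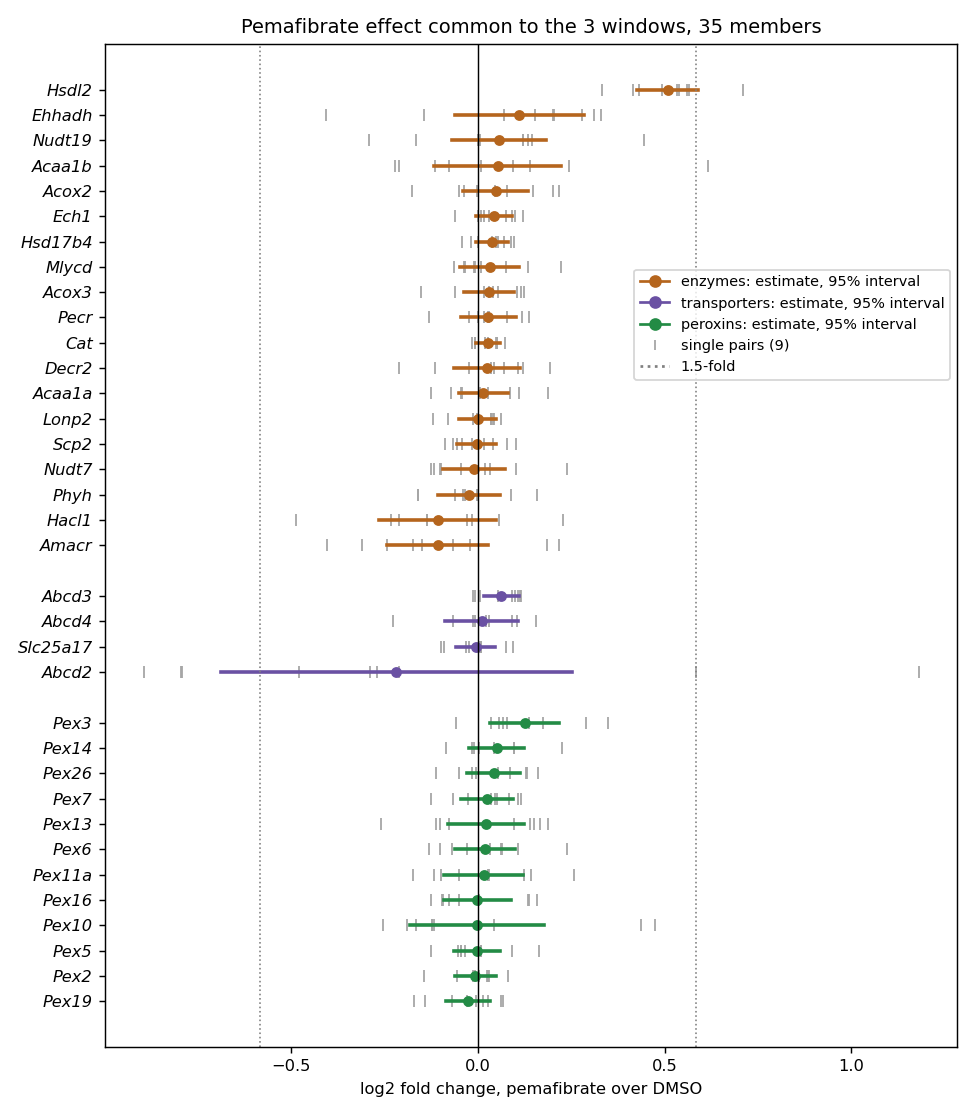
Pemafibrate over DMSO as log2 fold change common to the 3 windows for the 35 members. Dots and bars are estimates with 95% intervals of the paired limma fit, grey ticks the 9 single pairs, and dotted lines mark 1.5-fold. Hsdl2 lies apart at 0.51 and most other intervals span 0.

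Enzymes and peroxins were set side by side by their counts and medians. In the common fit 13 of 19 enzymes had a positive log2 fold change, with a median of 0.028 and a range from −0.11 to 0.51. Of the peroxins 7 of 12 were positive, with a median of 0.017 and a range from −0.03 to 0.13. Over all 13258 genes tested, 47.6% were positive and the median was −0.0025. Without Hsdl2 the enzymes had 12 of 18 positive values and a median of 0.027. The 4 transporters had 2 positive values and a median of 0.0019. Within single pairs, the enzyme median lay above the peroxin median in 6 of 9, and the pair medians ran from −0.02 to 0.07 for enzymes and from −0.06 to 0.09 for peroxins.

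The classes varied by window. In T0 to T24, 11 of 19 enzymes were positive with a median of 0.0081, and 6 of 12 peroxins with a median of −0.0060, beside 48.3% of all genes. In T14 to T20, 14 of 19 enzymes were positive with a median of 0.051, and 6 of 12 peroxins with a median of 0.0047, beside 48.7%. In T24 to T30, 10 of 19 enzymes were positive with a median of 0.0096, and 10 of 12 peroxins with a median of 0.061, beside 49.6%. The enzymes thus had their highest median in the window that mimics the day and the peroxins theirs in the window that mimics the night, and no test of these medians was made. Single pairs did not all follow this order. The highest enzyme pair median, 0.071, was in T24 to T30 (replicate 2), against 0.031, 0.052 and 0.055 in T14 to T20. The peroxin pair medians in T24 to T30 were 0.094, 0.022 and 0.023 for replicates 1, 2 and 3.

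**Figure D4:**
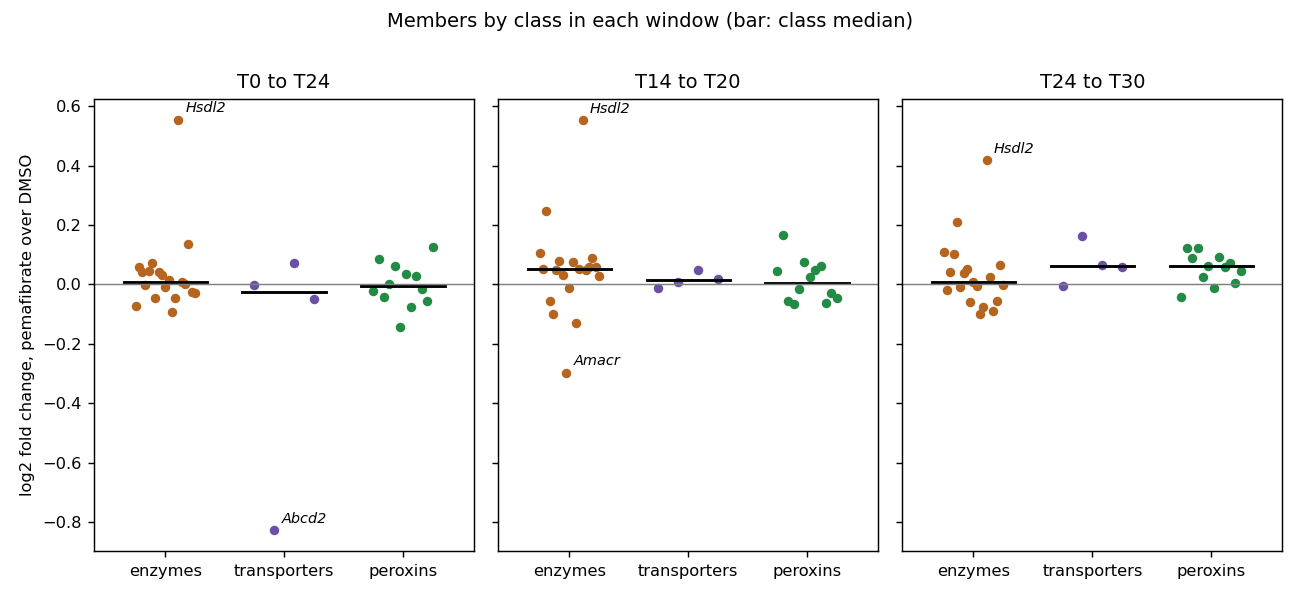
Log2 fold change of pemafibrate over DMSO for each member in the 3 windows, by class; bars are class medians. Hsdl2 is the highest point in each window, and medians stay between −0.026 and 0.063.

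Tests of the difference between windows called no member. For T14 to T20 minus T24 to T30, T0 to T24 minus T14 to T20 and T0 to T24 minus T24 to T30, limma called 0 of 13258 genes each, 0%, with 1225, 654 and 1057 genes at an unadjusted p under 0.05, of which 3, 2 and 1 were members. The effect on Hsdl2 in T14 to T20 exceeded that in T24 to T30 by 0.13 log2 units (95% interval −0.06 to 0.33, adjusted p = 0.649). The effect in T0 to T24 differed from that in T14 to T20 by 0.00 (−0.19 to 0.20) and from that in T24 to T30 by 0.14 (−0.06 to 0.33). These intervals do not show that the windows act alike.

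For most members the common fit gives an upper limit on the effect averaged over the windows. It counts pairs of the same replicate number as independent, and the spread behind the limit may be technical. For 33 of 35 the 95% interval of the common effect lay within 1.5-fold in either direction, among them 18 of 19 enzymes, 12 of 12 peroxins and 3 of 4 transporters. Hsdl2 reached above that bound and Abcd2 below it.

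The members were also compared between replicate numbers. The ratio of the highest to the lowest replicate mean (n = 6 libraries each) had a median of 1.15 over the 35 members, 1.22 for enzymes and 1.11 for peroxins, against a median drug effect of 1.02-fold in either direction. This ratio exceeded the drug effect in 33 of 35 members (94.3%), Hsdl2 and Pex3 being the exceptions, beside 96.7% of all genes tested, so the count is not particular to the members. A ratio of extremes among 3 means also tends to exceed a single difference between treatments. Over all genes tested the median replicate ratio was 1.197. The members were uneven in direction: replicate 2 was highest in 25 of 35 members, 15 of 19 enzymes and 8 of 12 peroxins, beside 31.3% of all genes. Replicate 3 was lowest in 25 of 35, beside 35.3% of all genes. The labels do not say what the replicate numbers stand for. Hsdl2 averaged 779 ± 182 in replicate 1, 784 ± 169 in replicate 2 and 588 ± 117 in replicate 3 (SD, n = 6, both treatments).

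**Figure D5:**
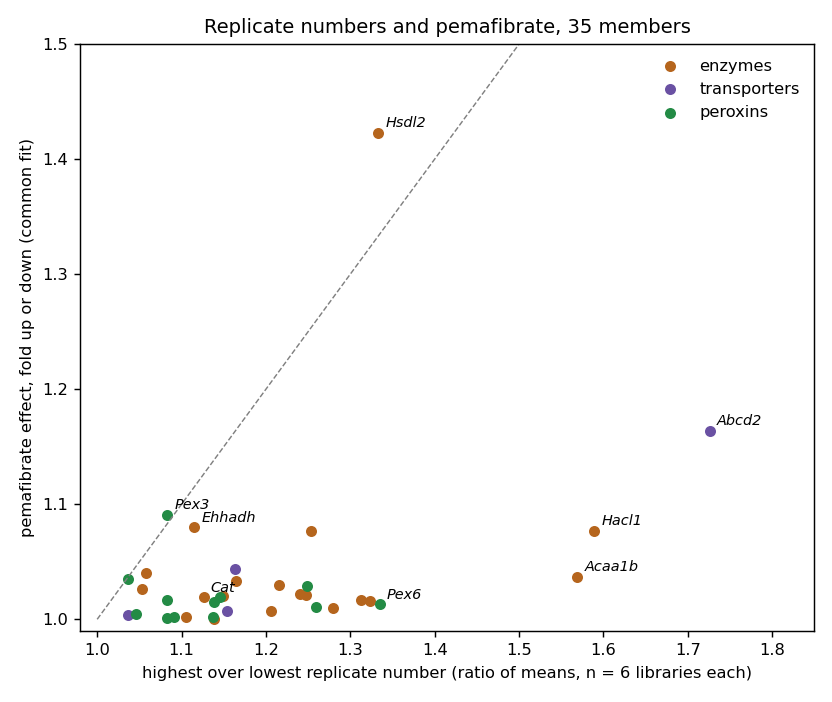
Drug effect as fold up or down in the common fit (vertical axis) against the ratio of the highest to the lowest replicate mean (horizontal axis) for the 35 members. The dashed line marks equal sizes; Hsdl2 and Pex3 lie above it and the other 33 members below it.

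Beyond the 35 members, 44 further genes of peroxisomes were looked up, of which 35 passed the level filter. In the common fit 2 of these 35 were called higher and none lower, beside 0.189% of all 13258 genes called. Positive values numbered 18 of 35 (51.4%) with a median of 0.0055, beside 47.6% and a median of −0.0025 over all genes. The share of positive values was thus near the background. Crot, the carnitine octanoyltransferase that prepares shortened fatty acids for export, was 0.22 ± 0.03 log2 units higher with pemafibrate (SE, limma adjusted p = 0.00135), a 1.17-fold higher signal in 9 of 9 pairs. Eci2, an enoyl-CoA isomerase of peroxisomes and mitochondria, was 0.21 ± 0.03 higher (adjusted p = 0.0151) in 8 of 9 pairs. Both calls were lost without the pairing. They were also lost when the windows were averaged within a replicate number, which does not count pairs of the same number as independent, with adjusted p of 0.0594 for Crot and 0.103 for Eci2. For Crot the adjusted p was 0.0994 without replicate 2 and 0.113 without T14 to T20. For Eci2 it was 0.404 and 0.389 without replicates 1 and 2, 0.443 without T0 to T24 and 0.227 without T14 to T20. No single window called any of the 35.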

How the data were processed

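Poly(A) RNA of 18 libraries was sequenced as dUTP-stranded libraries, per the labels' protocols. The deposited values are normalized signal, scaled by the authors within each window's table of 35551 genes, per the file headers. Counter version, build and annotation: not given in the sources used here. Low values were whole multiples of 1 read in only 56.9% to 74.9% of cases (tolerance 0.05), so reads were not recovered and depth is unknown. Totals ran from 31461977 to 33884634, with 4.72% to 5.64% in the top 10 genes. Symbols matched 35181 IDs. Exon lengths, merged over all annotated transcripts of a gene, came from GENCODE M21.

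Values were tested as log2(value + 1), which understates changes of low genes, with limma 3.58.1 in R 4.3.3, with a variance trend, a mean filter of 10, two-sided tests and Benjamini-Hochberg adjustment over all genes at 0.05. Replicate numbers from the titles were blocks. Deviations from the group mean correlated at 0.31 to 0.64 between same-numbered libraries in all 9 pairs, and at −0.44 to −0.11 otherwise. Deviations cancel within a group, so positive values for the same number bring negative ones elsewhere by arithmetic. The common fit counts pairs of the same number in different windows as independent. Values per library were given for genes past the threshold, for 6 genes chosen by name and for the smallest p of each class; Amacr and Abcd2 were named after their values were seen. Members, lists and the common fit were chosen with earlier results of these data known. The fits were also run on simulated data, whose residuals were drawn independently for each library. Those data cannot show how dependence between pairs of the same number affects the common fit. Alternatives covered scaling, filters, pseudocounts, variance settings, pairing and left-out libraries. Targeting signals in proteins were not analysed here.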

Additional observations from a re-analysis of the deposited data

Results flagged for a closer look

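For 4 members every pair moved one way in one window and the opposite way in another, and none of these differences passed the limma test over all genes. This is 11.4% of the 35 members, beside 10.8% of the 13258 genes tested, so the share is near the background. The pemafibrate effect on Pex6 was −0.07 in T14 to T20 and 0.12 in T24 to T30, a difference of −0.19 log2 units (adjusted p = 0.512). The effect on Pex5 was −0.04 in T0 to T24 and 0.09 in T24 to T30, a difference of −0.13 (adjusted p = 0.618). The effect on Pex26 was 0.13 in T0 to T24 and −0.04 in T14 to T20, a difference of 0.17 (adjusted p = 0.985). The effect on Acox2, the only enzyme of the 4, was −0.07 in T0 to T24 and 0.11 in T24 to T30, a difference of −0.18 (adjusted p = 0.620).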

How the results depend on the processing

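The windows and the differences between them called 0 members, and alternatives that repeat a 0 say nothing about stability. Without the replicate block the common fit called 0 members in place of 1 (Hsdl2, log2 fold change 0.51, adjusted p = 0.169) and 2 genes in place of 25, so the pairing decides that call. With a fit shared by all libraries, each window called 1 member, Hsdl2 (adjusted p of 0.00295, 0.0046 and 0.0484 in window order), and robust variance settings called 1 in T0 to T24 (0.0336). Hsdl2 held in 15 of 16 alternatives of the common fit, with adjusted p of 0.000861 to 0.00124 without 1 replicate number and 0.00406 when windows were averaged within a number. Leaving out 1 replicate number, the transporter median ran from 0.004 to 0.042 in T14 to T20 and from 0.024 to 0.064 in T24 to T30, and 163 of 165 class medians moved by less than their spread. Over all alternatives, calls among all genes ran from 0 to 14 in T0 to T24, 0 to 9 in T14 to T20, 0 to 8 in T24 to T30, 2 to 26 in the common fit and 0 to 1 for each difference. Eci2 also lost its call with no variance trend (adjusted p = 0.104). Read depth is unknown, so no counting error could be given.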
